A study of Caenorhabditis elegans with 6 samples.

Results

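Transcript levels of the large chaperones, the DnaJ co-chaperones and the cytosolic chaperonin of Caenorhabditis elegans were compared between worms raised on chlorpyrifos (CPF) and control worms. CPF is an insecticide of the organophosphorus class, whose known target is acetylcholinesterase. The genes were chosen by name: every symbol that begins with hsp-, dnj- or cct-, together with daf-21 and hsf-1, but without the small heat shock proteins called hsp-12., hsp-16. and hsp-17. This gave 49 genes with 64 probes, out of 18865 genes with 22490 probes on the array. One more gene of the rule, the chaperonin subunit cct-6 (F01F1.8), was matched to no probe and was not analysed here.

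Both groups were wild type N2 worms hatched from bleached eggs, kept at 16 °C for 72 hours and fed Escherichia coli OP50, and were collected between larval stages L3 and L4. For the CPF group the agar held CPF dissolved in acetone, at 0.5 mg/ml in the labels, and for the control group it held acetone alone. The study's own text has it per litre, and only that reading lies below the effect concentrations cited there, so the dose is uncertain by its unit. Worms of 4 dishes were pooled into a sample. Each of 6 arrays held 1 CPF and 1 control sample, with CPF in Cy5 on 3 arrays (CPF Cy5 replicates 1 to 3) and in Cy3 on the other 3 (CPF Cy3 replicates 1 to 3). The methods describe 6 independent biological replicates per treatment, hybridised on 6 arrays with the dyes swapped. They do not say which extract went on which array, and p-values therefore cover the spread between arrays, part of which may be technical. In whole worms, fewer cells of a type and less RNA per cell cannot be told apart.

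Chaperones of the Hsp70 family bind unfolded stretches of other proteins and release them in a cycle driven by ATP. DnaJ proteins hand clients to Hsp70 and speed up ATP hydrolysis, Hsp90 acts on clients that are nearly folded, and chaperonins enclose a client in a chamber. Each compartment of the cell has its own set, and unfolded proteins in the cytosol, the endoplasmic reticulum (ER) or the mitochondria are known to raise different chaperone genes. In the nematode the cytosolic response runs through the transcription factor HSF-1, while hsp-4 and hsp-6 are widely used as reporters of the ER and mitochondrial unfolded protein responses.

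Over the whole array 225 genes passed an adjusted p of 0.05 by limma, 61 higher and 164 lower in CPF worms. The count depended on the arrays and the background. Leaving out a single array gave 7 genes for CPF Cy5 replicate 2, 24 for CPF Cy3 replicate 3 and 37 for CPF Cy5 replicate 1. It gave 84 for CPF Cy5 replicate 3, 207 for CPF Cy3 replicate 2 and 313 for CPF Cy3 replicate 1. The count was 19 (13 higher and 6 lower) without background correction. The share of probes above background ran from 35.0% to 61.6% over the 12 samples, where above background means a mean foreground more than 2 SD over the mean local background. Ratios of CPF Cy5 replicates 1 to 3 and CPF Cy3 replicate 1 correlated with each other (r between 0.43 and 0.72 across 7072 genes, which are not independent replicates). CPF Cy3 replicates 2 and 3 correlated with each other (r = 0.41) and stood apart from the rest (r between -0.17 and 0.20). Both were scanned on the second of 2 scan days, as was CPF Cy5 replicate 3. Sperm genes were lower in CPF worms (15 of 25 called, median log2 ratio -1.63), and markers of muscle (7 of 8) and intestine (8 of 8) were above background on all arrays of a condition.

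No chaperone gene of the set passed the test for a difference between CPF and control worms. None of the 49 genes was called, where 1.19% of all genes were (0.323% higher and 0.869% lower). Over probes it was 0 of 64, where 0.934% were called. At an unadjusted p below 0.05 there were 3 of 49, hsp-43 and hsp-6 higher and dnj-15 lower, against 10.3% of all genes (3.89% higher and 6.45% lower). The ratio had the same sign on all 6 arrays for 3 of 49, hsp-43 and dnj-23 higher and hsp-1 lower, against 7.13% of all genes (2.86% higher and 4.28% lower). By the rank product, 0 of 64 probes passed a percentage of false positives (PFP) of 0.05, where 2.65% of all probes did. The lowest PFP were 0.142 for hsp-43 (higher) and 0.0738 for cct-5 (lower).

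Of the 49 genes 36 (73.5%) were above background on all arrays of a condition, against 37.5% of all genes, and these carry the values below. None of the 36 was called and 3 had an unadjusted p below 0.05, where 2.45% of such genes were called and 12.9% had such a p. Their fitted log2 fold changes (CPF over control, from a linear model with a dye term) had a median of 0.017, and the median over the 7072 such genes of the array was -0.0061. Over all 49 genes the median was 0.0012, against 0.0051 over all 18865 genes. The 95% interval of all 36 lay within a 2-fold change in either direction. It lay within 1.5-fold for 32 and within 1.3-fold for 21. The upper bound reached 1.5-fold for 3 genes (hsp-43, hsp-6 and hsp-60) and the lower bound for 1 (cct-5).

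**Figure D1:**
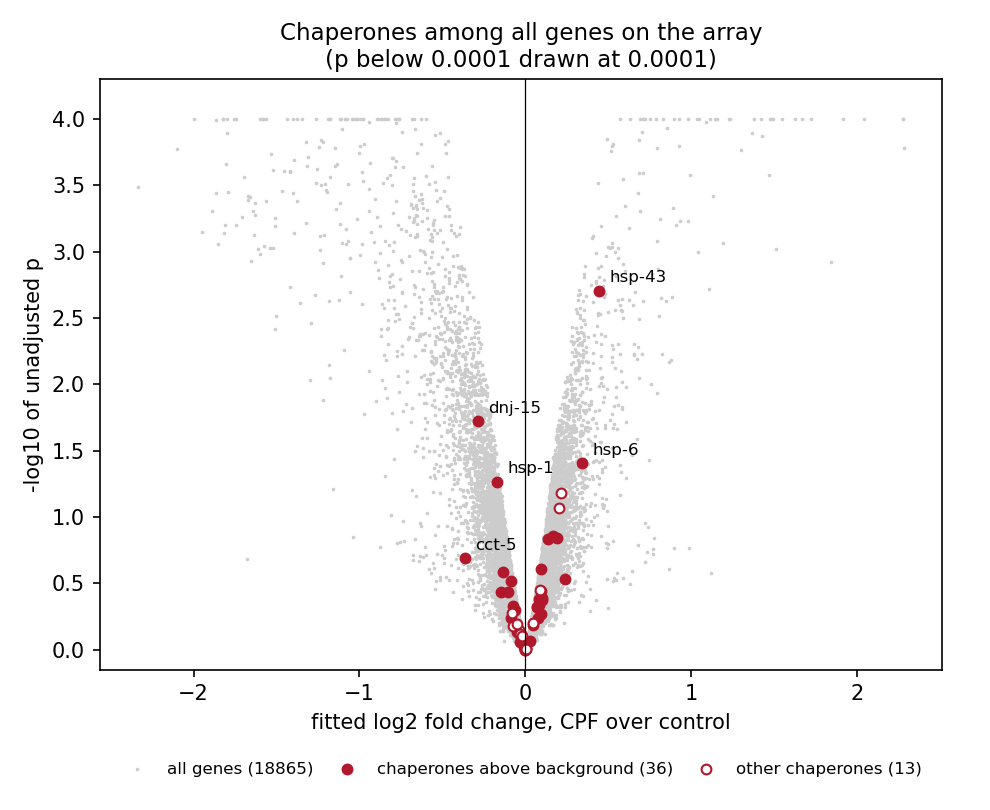
Fitted log2 fold change (CPF over control) on the x axis against the -log10 of the unadjusted p for all 18865 genes (grey), with the chaperones above background in red and the other chaperones as open circles. The chaperones lie in the lower middle of the cloud, with hsp-43 at 0.44 and a p of 0.00197 as the highest point among them.

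In the cytosol the constitutive Hsp70, hsp-1 (F26D10.3, chromosome IV), was slightly below control on every array. Its log2 ratios were -0.17, -0.19 and -0.063 with CPF in Cy5 and -0.35, -0.24 and -0.024 with CPF in Cy3. The fitted log2 fold change was -0.17 ± 0.076 (SE, n = 6 arrays), with an unadjusted p of 0.0539 and an adjusted p of 0.497 by limma. Its spot was saturated in CPF on 2 arrays and in the control on 1. Saturation can distort the ratio itself, so the size and sign of this small difference are uncertain. Its spread between arrays is for the same reason not set against that of other genes.

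Hsp90, daf-21 (C47E8.5, chromosome V, named hsp-90 in the gene table), helps kinases and receptors to reach their active form. It was higher on 5 of 6 arrays, with log2 ratios of 0.30, 0.014 and 0.28 with CPF in Cy5 and 0.32, -0.25 and 0.34 with CPF in Cy3. The fitted value was 0.17 ± 0.10 (SE, n = 6, adjusted p 0.673 by limma). The exception was CPF Cy3 replicate 2, and the spot was saturated in CPF on 1 array.

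Hsp110, hsp-110 (C30C11.4, chromosome III), exchanges the nucleotide on Hsp70. Its ratios lay between -0.24 and 0.11 on 5 arrays and at 0.83 on CPF Cy3 replicate 3. The fitted log2 fold change of 0.092 ± 0.14 (SE, n = 6) therefore rests on that array for its sign: without CPF Cy3 replicate 3 it was -0.084. The heat-inducible Hsp70 hsp-70 (C12C8.1, chromosome I) was above background on 0 of 6 arrays in CPF worms and on 2 of 6 in control worms, and no fold is given for it. Both conditions were thus at or near the limit of detection for the gene of the set that is best known for its induction by heat.

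HSF-1, the transcription factor that drives the heat shock genes (hsf-1, Y53C10A.12, chromosome I), had log2 ratios of 0.071, 0.59 and 0.012 with CPF in Cy5 and 0.07, -0.093 and -0.15 with CPF in Cy3. Arrays thus lay on both sides of 0, with CPF Cy5 replicate 2 alone at a high value. The fitted log2 fold change was 0.083 ± 0.10 (SE, n = 6, adjusted p 0.863 by limma).

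Among the cytosolic DnaJ genes, 2 of 3 were above background. The class B member dnj-13 (F54D5.8, chromosome II) had ratios of 0.17, 0.06 and 0.051 with CPF in Cy5 and -0.13, -0.40 and 0.22 with CPF in Cy3. Those of the class A member dnj-19 (T05C3.5, chromosome V) were -0.051, 0.10 and 0.15 with CPF in Cy5, and -0.032, -0.38 and 0.053 with CPF in Cy3. Both were lowest on CPF Cy3 replicate 2 and their fitted values were near 0 (-0.0056 ± 0.094 for dnj-13 and -0.026 ± 0.084 for dnj-19, SE, n = 6). The other class A gene, dnj-12 (F39B2.10), was above background on no array.

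**Figure D2:**
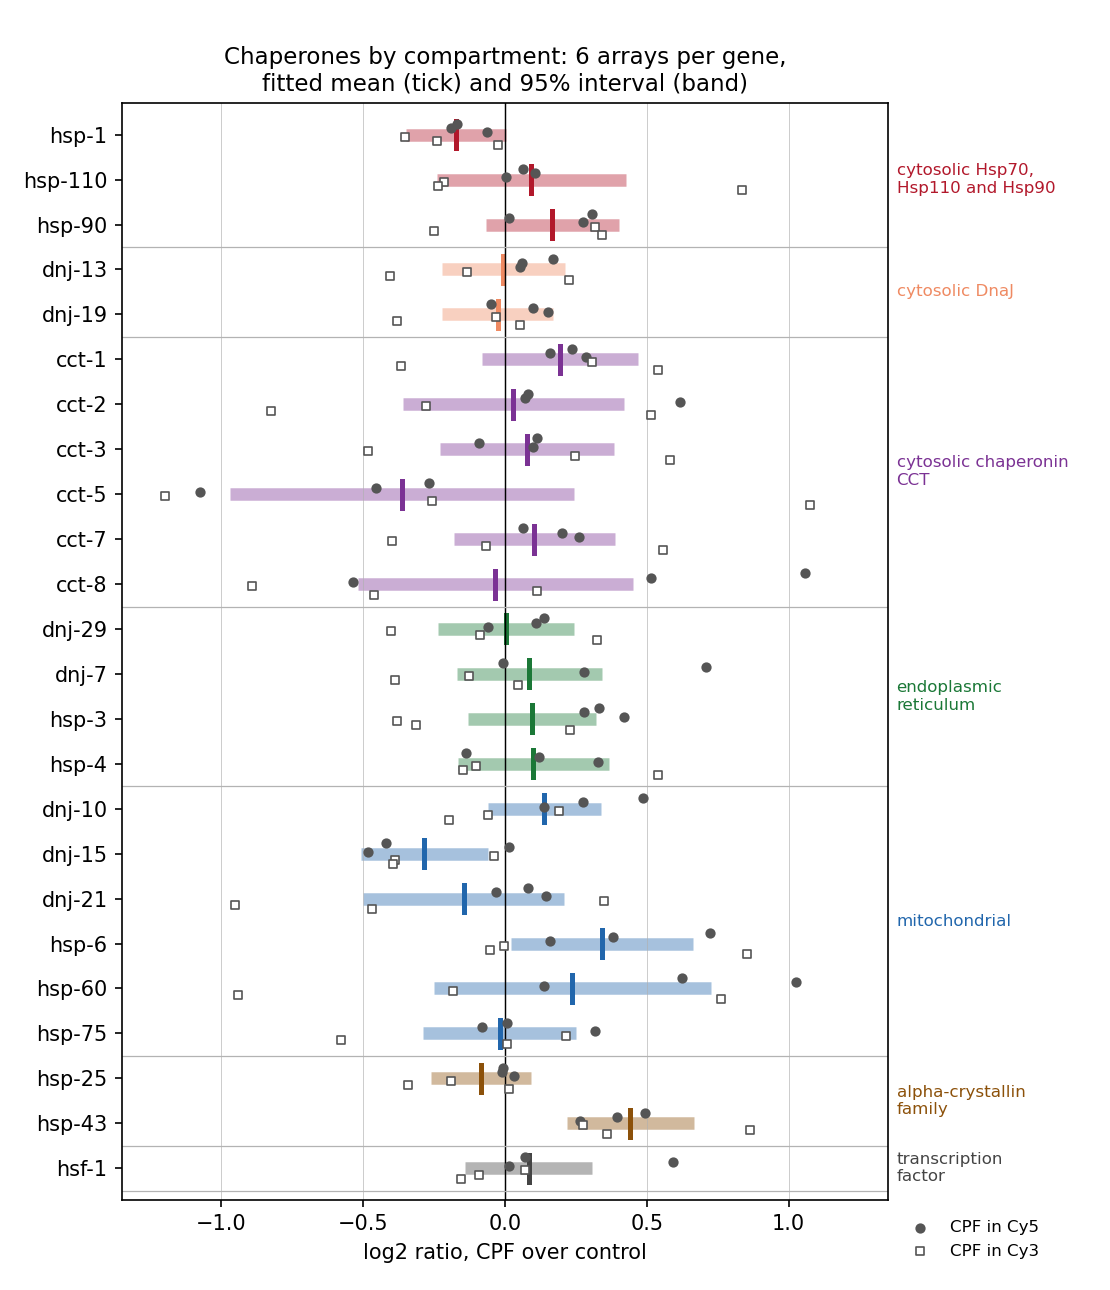
Log2 ratios of CPF over control (x axis) on the 6 arrays for the 24 named members above background, ordered by compartment, with filled circles for arrays with CPF in Cy5 and open squares for CPF in Cy3. The tick is the fitted log2 fold change and the band its 95% interval. All 6 points lie above 0 for hsp-43 and below 0 for hsp-1, and the points of cct-5, cct-8 and hsp-60 spread over about 2 log2 units.

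The chaperonin CCT is a double ring of 8 kinds of subunit that folds actin and tubulin. None of its subunits was called, and the side of 0 on which most of them lay differed between arrays. Of the 7 genes measured, 6 were above background: cct-4 (K01C8.10) was so on no array. On CPF Cy3 replicate 3, 5 of the 6 were at 0.51 or higher, with cct-1 (T05C12.7) at 0.54, cct-2 (T21B10.7) at 0.51, cct-3 (F54A3.3) at 0.58, cct-7 (T10B5.5) at 0.56 and cct-5 (C07G2.3) at 1.07. The sixth, cct-8 (Y55F3AR.3), was at -0.46 there. On CPF Cy3 replicate 1, 5 of the 6 were below 0 and their median was -0.44.

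The subunit with the lowest fitted value of the whole set was cct-5 (chromosome III), at -0.36 ± 0.26 (SE, n = 6, adjusted p 0.736 by limma). Its log2 ratios were -0.27, -0.45 and -1.07 with CPF in Cy5 and -1.20, -0.26 and 1.07 with CPF in Cy3. It was therefore lower on 5 arrays and high on 1. Within the first scan day (CPF Cy5 replicates 1 and 2 and CPF Cy3 replicate 1) it was called, at -0.78. It was also called, at -0.90, when both CPF Cy3 arrays of the second day were left out, a setting chosen after seeing the data. In each of these fits CPF Cy3 replicate 1 was the only array with CPF in Cy3. The fits share the arrays of the first day, so the second call does not repeat the first. Within the second day cct-5 was at -0.33. No other call of a chaperone gene was made under any setting tried.

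The remaining subunits gave fitted values between -0.034 for cct-8 and 0.19 for cct-1. The ratios of cct-8 (chromosome IV) were 1.06, 0.52 and -0.54 with CPF in Cy5 and -0.89, 0.11 and -0.46 with CPF in Cy3, with the highest and lowest arrays on opposite sides of 0 within each dye order. Those of cct-1 (chromosome II) were the most even, above 0 on 5 of 6 arrays and at -0.37 on CPF Cy3 replicate 2. None of the CCT genes had an adjusted p below 0.678.

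In the ER, 4 of 6 genes were above background, and all 4 had fitted values between 0.0038 and 0.10 with no call. The nematode has 2 genes for the ER Hsp70 known as BiP. The ratios of hsp-3 (C15H9.6, chromosome X) were 0.33, 0.28 and 0.42 with CPF in Cy5, and -0.38, -0.31 and 0.23 with CPF in Cy3. For the stress-inducible hsp-4 (F43E2.8, chromosome II) they were -0.14, 0.12 and 0.33 with CPF in Cy5, and -0.10, -0.15 and 0.54 with CPF in Cy3. Both were below 0 on CPF Cy3 replicates 1 and 2. The fitted log2 fold change was 0.094 ± 0.10 for hsp-3 and 0.10 ± 0.11 for hsp-4 (SE, n = 6, adjusted p 0.836 and 0.859 by limma), and the upper bounds of their intervals were a 1.25-fold and a 1.29-fold rise.

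The ER DnaJ genes spanned a similar range. The gene dnj-7 (C55B6.2, chromosome X), the counterpart of the human p58IPK, was at 0.71 on CPF Cy5 replicate 2 and between -0.39 and 0.28 on the other arrays. The translocon component dnj-29 (Y63D3A.6, chromosome I), counterpart of Sec63, lay between -0.40 and 0.32. With CPF in Cy5 the ER genes had medians of 0.064, 0.20 and 0.30 per array, while all 4 lay below 0 on CPF Cy3 replicates 1 and 2 and above 0 on CPF Cy3 replicate 3. A dye effect was fitted for each gene, in log2 units. It was 0.25 for hsp-3, 0.24 for dnj-7, 0.058 for dnj-29 and 0.0027 for hsp-4. For no chaperone gene was it called, which does not show that a dye effect was absent. Below background on some arrays of both conditions were dnj-20 (T15H9.7, above on 1 CPF and 4 control arrays) and dnj-27 (Y47H9C.5, on 4 CPF and 5 control arrays).

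The mitochondrial members gave the widest fitted range of any compartment, with values between -0.29 and 0.34. All 6 were above background and none was called. The mitochondrial Hsp70 hsp-6 (C37H5.8, chromosome V) imports and folds proteins in the matrix, and its log2 ratios were 0.72, 0.38 and 0.16 with CPF in Cy5 and -0.0048, -0.054 and 0.85 with CPF in Cy3. It was higher on 4 arrays and near 0 on the other 2, with a fitted value of 0.34 ± 0.14 (SE, n = 6, unadjusted p 0.0391, adjusted p 0.44 by limma).

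The chaperonin of the matrix, hsp-60 (Y22D7AL.5, chromosome III), had ratios of 0.62, 1.03 and 0.14 with CPF in Cy5 and -0.18, -0.94 and 0.76 with CPF in Cy3. It was higher on the same 4 arrays as hsp-6. Its fitted value was 0.24 ± 0.21 (SE, n = 6, adjusted p 0.803 by limma), and its interval ran from 0.841-fold to 1.65-fold. The Hsp90 of mitochondria, hsp-75 (R151.7), lay between -0.58 and 0.32 and was fitted at -0.018 ± 0.12 (SE, n = 6).

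Among the mitochondrial DnaJ genes, dnj-15 (K08D10.2, chromosome IV), the counterpart of the HSCB protein of iron-sulfur cluster assembly, had the lowest fitted value. Its log2 ratios were -0.42, 0.014 and -0.48 with CPF in Cy5 and -0.04, -0.39 and -0.39 with CPF in Cy3. The arrays fell into 4 near -0.4 and 2 near 0, one of each dye. The fitted value was -0.29 ± 0.10 (SE, n = 6, unadjusted p 0.0189, adjusted p 0.311 by limma). Its spot was above background on 5 arrays in CPF and 6 in control worms. The Tid1 counterpart dnj-10 (F22B7.5) was fitted at 0.14 ± 0.086 and the import motor subunit dnj-21 (T19B4.4), counterpart of Pam18, at -0.15 ± 0.15 (SE, n = 6), with dnj-21 at -0.95 on CPF Cy3 replicate 2.

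Among the 36 chaperone genes above background, the level differed most between arrays for hsp-60, cct-2 and hsp-6. The normalized log2 brightness of hsp-60 was 12.64, 12.26, 13.46, 13.38, 8.55 and 11.31 in CPF worms on CPF Cy5 replicates 1 to 3 and CPF Cy3 replicates 1 to 3. In control worms on the same arrays it was 12.01, 11.24, 13.32, 13.56, 9.49 and 10.55. Both conditions were lowest on CPF Cy3 replicate 2. The SD of the level over the arrays was 1.84 in CPF worms and 1.59 in control worms. The median SD of all genes above background was 0.482 in CPF worms and 0.457 in control worms. That of the chaperone genes above background was 0.456 in CPF worms and 0.418 in control worms.

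The level of hsp-6 had an SD of 1.20 in CPF worms and 1.15 in control worms, and that of cct-2 had an SD of 1.58 in CPF worms and 1.22 in control worms. The spot of cct-2 was above background on 5 arrays in CPF and 6 in control worms. For hsp-6 and cct-2, CPF Cy3 replicate 2 was again the lowest array in both conditions. Other members were highest on that array in both conditions, among them dnj-19 (12.57 in CPF, 12.95 in control worms) and hsf-1 (9.46 and 9.55). The share of probes above background was lowest on CPF Cy3 replicate 2 (35.0% in CPF, 41.5% in control worms). The part of this array's quality in these levels was not tested.

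**Figure D3:**
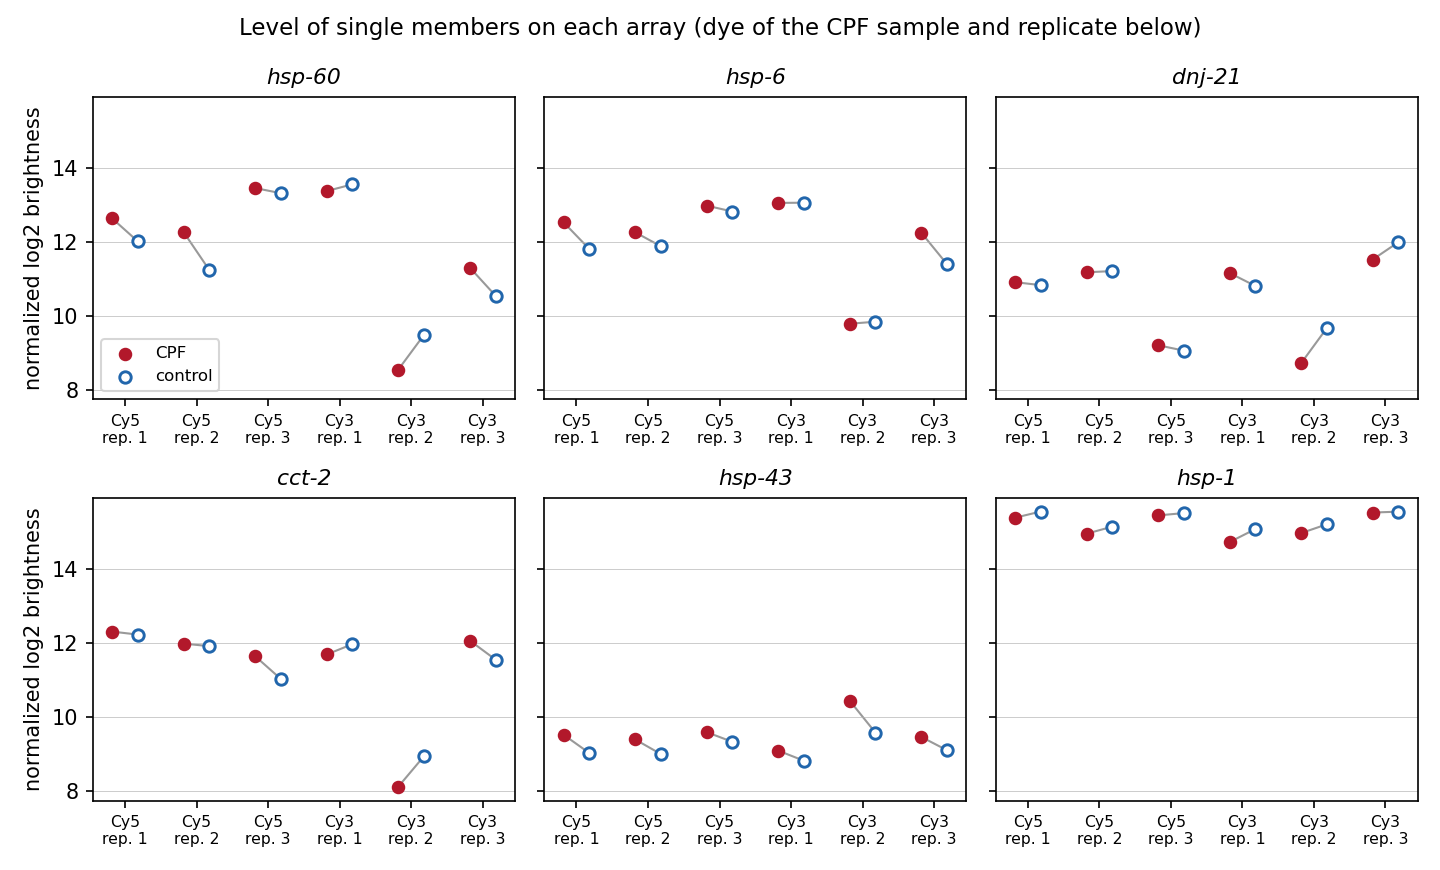
Normalized log2 brightness (y axis) of 6 members on each array, with CPF worms as filled red circles and control worms of the same array as open blue circles, joined by a line. The pairs of hsp-60, hsp-6 and cct-2 on CPF Cy3 replicate 2 lie well under those of the other arrays, while hsp-43 is higher in CPF worms on each array. Levels of different genes cannot be compared, since each probe has its own response.

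Of 2 members of the alpha-crystallin family that the rule keeps, hsp-43 (C14F11.5, chromosome X) was higher in CPF worms on every array. Its log2 ratios were 0.49, 0.40 and 0.26 with CPF in Cy5 and 0.27, 0.86 and 0.36 with CPF in Cy3. The normalized log2 brightness averaged 9.59 ± 0.45 in CPF worms and 9.15 ± 0.27 in control worms (SD, n = 6 each). The fitted log2 fold change of 0.44 ± 0.10 (SE, n = 6, interval 1.16-fold to 1.59-fold) had an unadjusted p of 0.00197 and an adjusted p of 0.0949 by limma, so it was not called. It was the only one of the 49 genes with 1 sign on all arrays and an unadjusted p below 0.05.

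The other, hsp-25 (C09B8.6, chromosome X), is known from body wall muscle. Its ratios were -0.0055, -0.011 and 0.033 with CPF in Cy5, and -0.19, -0.34 and 0.015 with CPF in Cy3. They lay close to 0 on 4 arrays, and the fitted value was -0.084 ± 0.076 (SE, n = 6). The muscle markers had medians of -0.061, -0.03 and 0.28 with CPF in Cy5 and -0.49, 0.39 and 0.78 with CPF in Cy3. Where hsp-25 was away from 0, it had their sign on CPF Cy3 replicate 1 and the opposite sign on CPF Cy3 replicate 2. The part of the muscle markers in the values of hsp-25 was not tested.

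The other 19 DnaJ genes had fitted values between -0.13 and 0.21 and no call, and 12 of them were above background. The lowest was dnj-30 (Y71F9B.16, -0.13 ± 0.11) and the highest of the 12 was dnj-9 (F11G11.7, 0.10 ± 0.077, SE, n = 6). Named for a well known counterpart were dnj-14 (K02G10.8), the cysteine string protein of synaptic vesicles, at 0.068 ± 0.092, and dnj-25 (W07A8.3), the auxilin that uncoats clathrin, at -0.076 ± 0.10 (SE, n = 6). Both had arrays on either side of 0.

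Of the remaining 7, dnj-23 (T24H10.3) was above 0 on all 6 arrays, between 0.04 and 0.69, and fitted at 0.21 ± 0.10 (SE, n = 6, adjusted p 0.54 by limma), with its spot above background on 5 arrays in CPF and 5 in control worms. The gene dnj-26 (Y39C12A.8) was above background on no array, and neither was hsp-2 (K09C4.3), annotated as a pseudogene. With cct-4 and dnj-12 this makes 4 genes that were not seen in either condition, and no fold is given for them.

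Probes of the same gene were compared where there were several. For dnj-2 (B0035.2, chromosome IV) 3 probes gave fitted values of -0.048, -0.24 and -0.35. The second and the third were both lower on all 6 arrays. Ratios of the second ran from -0.91 to -0.0078, with an unadjusted p of 0.0921 by limma. Those of the third were -0.21, -0.23 and -0.76 with CPF in Cy5, and -0.38, -0.19 and -0.30 with CPF in Cy3. The third had an unadjusted p of 0.00686 and an adjusted p over probes of 0.199 by limma. The brightest, which stands for the gene in all counts, had arrays between -0.48 and 0.57. The gene was thus called by none of its probes, and its probes disagreed in how steady the difference was.

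For dnj-5 (C04A2.7, chromosome II) 7 probes of 4 transcript names lay between -0.11 and 0.16, and 5 of them were below background on some arrays. All 3 probes of dnj-10 were fitted above 0, at 0.14 and 0.14 for the pair of transcript F22B7.5b and at 0.035 for that of F22B7.5a, which was above background on 5 of 6 arrays in each condition. Those of dnj-29 were at 0.0038, -0.075 and -0.052, the last from a spot below background on every array. The 2 probes of hsp-75 differed in sign (-0.018 ± 0.12 and 0.058 ± 0.090, SE, n = 6). For cct-5 the low value came from the single probe above background, named for transcript C07G2.3a, since both probes of C07G2.3b were below background on every array.

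**Figure D4:**
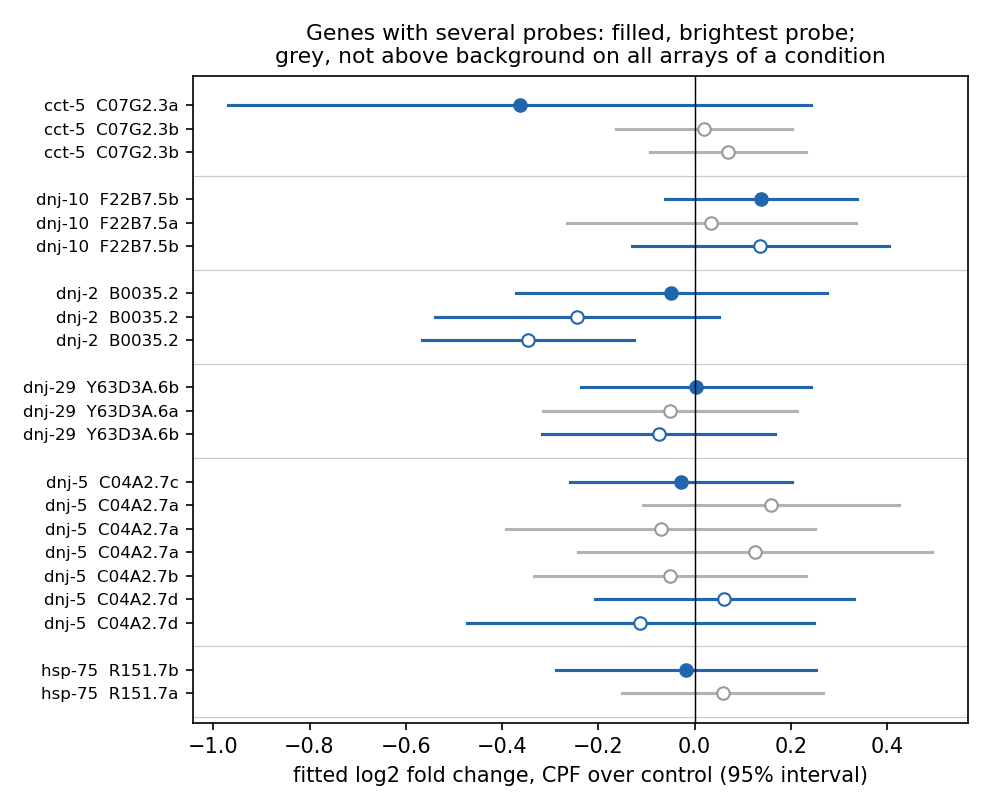
Fitted log2 fold change (CPF over control, x axis) with its 95% interval for every probe of the 6 members with several probes, named by gene and spot. Filled circles are the brightest probe of each gene and grey marks a probe that was not above background on all arrays of a condition. Only a probe of dnj-2, fitted at -0.35, has an interval that leaves out 0.

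The chaperone groups were also compared array by array. On CPF Cy3 replicate 2 only 6 of the 36 genes above background were above 0, against 16 to 26 on the other arrays. The medians of the 36 were 0.068, 0.044 and 0.12 with CPF in Cy5 and -0.027, -0.17 and 0.073 with CPF in Cy3. For the 7072 genes above background they lay between -0.044 and 0.013. All 6 mitochondrial genes were below 0 on CPF Cy3 replicate 2 (median -0.48), and 5 of them above 0 on CPF Cy5 replicates 1 and 3. The alpha-crystallin pair had a median of 0.26 on CPF Cy3 replicate 2. On CPF Cy3 replicate 1 the groups lay apart, with 9 of the 12 other DnaJ genes above 0 (median 0.15) and medians of -0.44 for the CCT and -0.25 for the ER genes.

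Marker genes of germline and muscle also differed in their ratios from array to array. Sperm markers were lower on every array, with medians of -3.04, -1.54 and -1.42 with CPF in Cy5 and -2.39, -0.78 and -0.80 with CPF in Cy3 over 19 genes. Markers of germline proliferation and meiosis had medians of -0.58, -0.33 and -0.17 with CPF in Cy5 and -0.61, 0.26 and 0.40 with CPF in Cy3 over 14 genes. Of the 16 germline genes measured none was called, and of the 12 oocyte genes 1 was (lower), where 1.19% of all genes were. The 12 oocyte genes had a median fitted value of -0.45. Of these, 6 had an unadjusted p below 0.05 by limma, all lower, against 10.3% of all genes. Only 4 of the oocyte genes were above background on all arrays of a condition. Of 138 cuticle collagens 17 were called, all lower. The part of the markers in the chaperone values was not tested.

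**Figure D5:**
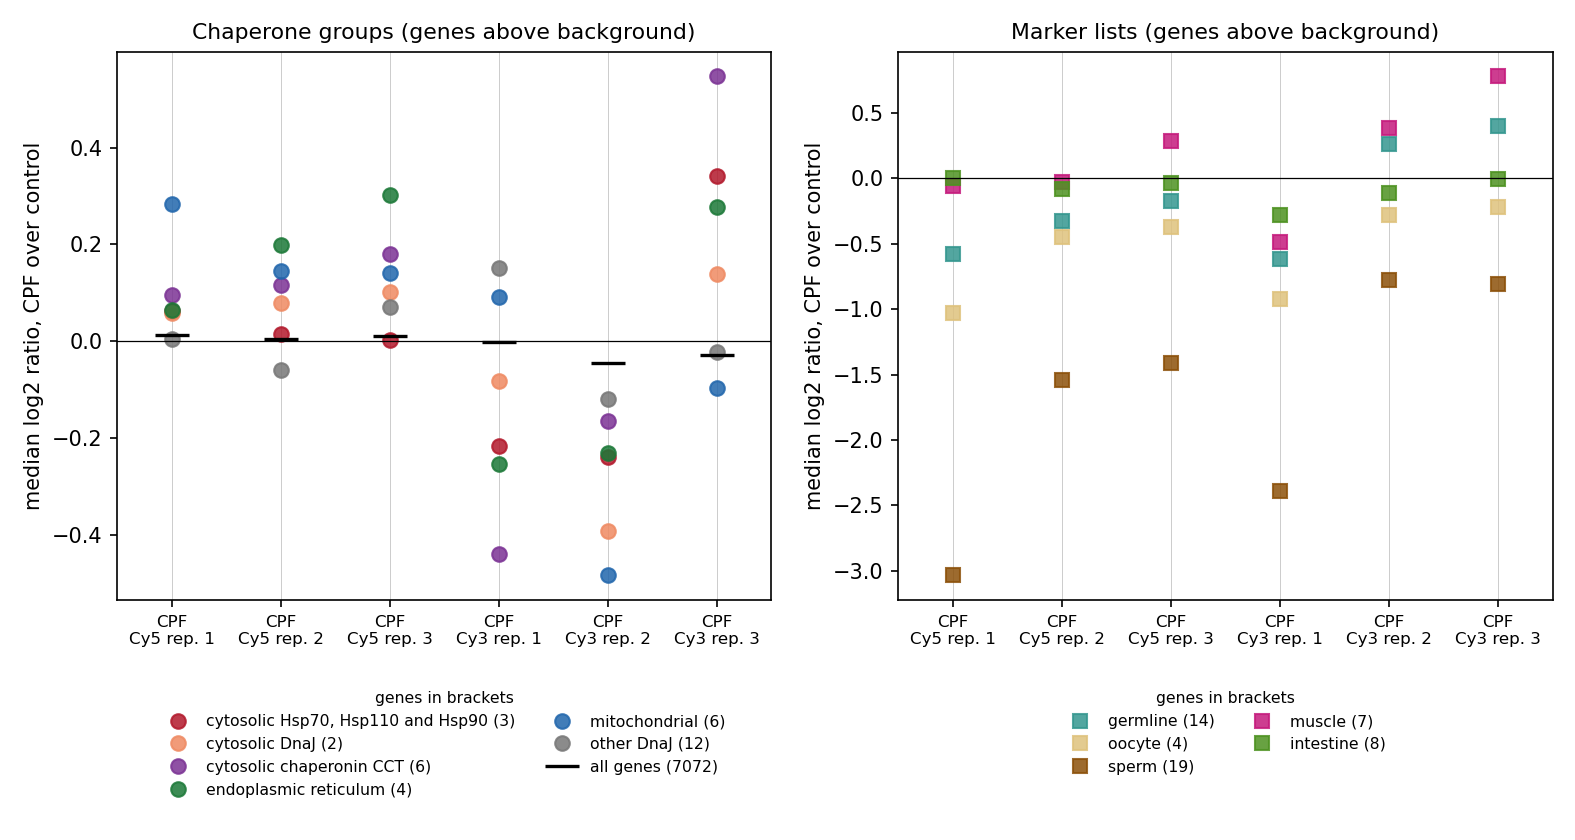
Median log2 ratio (CPF over control, y axis) on each of the 6 arrays for 6 chaperone groups (left, with a black bar for the 7072 genes above background) and 5 marker lists (right), genes above background only. The chaperone medians fall below 0 together on CPF Cy3 replicate 2, while those of the sperm markers are lowest on CPF Cy5 replicate 1.

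Genes that work with these chaperones were taken from 6 lists with 55 genes measured, and 1 of them was called, where 1.19% of all genes were. Of 14 co-chaperones of Hsp70 and Hsp90 none passed, with the lowest value for hsb-1 (K08E7.2), a negative regulator that binds HSF-1, at -0.27 ± 0.088 (SE, n = 6, unadjusted p 0.0159, adjusted p 0.283 by limma), below 0 on 5 of 6 arrays. The highest was unc-23 (H14N18.1), a BAG-domain protein needed for muscle attachment, at 0.22 ± 0.12. The list's median was -0.0080.

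Neither unfolded protein response showed a call. Of 14 genes of the ER response none passed and 11 had fitted values above 0, with a list median of 0.043 and a range from -0.094 (stc-1, F54C9.2, an ER Hsp70-like protein) to 0.16 (ero-1, Y105E8B.8, the oxidase that charges disulfide isomerases). The sensors ire-1, pek-1 and atf-6, named after their values were seen, were at 0.11, 0.15 and 0.14, and the transcription factor xbp-1, whose mRNA IRE-1 splices, was at 0.033. Of 9 genes of the mitochondrial response none passed and 7 were above 0, with a median of 0.12. They ran from -0.26 ± 0.11 for ubl-5 (F46F11.4), a ubiquitin-like cofactor, to 0.17 ± 0.11 for spg-7 (Y47G6A.10), a protease of the inner membrane (SE, n = 6). The median over all 18865 genes was 0.0051, and 9774 of them had fitted values above 0. By array, the ER list had medians of 0.15, 0.19 and 0.13 with CPF in Cy5 and -0.061, -0.11 and 0.12 with CPF in Cy3. For the mitochondrial list they were 0.27, 0.041 and 0.14 with CPF in Cy5 and 0.098, -0.16 and 0.28 with CPF in Cy3.

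None of the 6 subunits of prefoldin, which passes actin and tubulin to CCT, was called, and their fitted values lay between -0.17 (pfd-5) and 0.088 (pfd-4, above background on 4 arrays in each condition). Of 3 Hsp70 family genes without an hsp symbol none was called, with T14G8.3 at 0.25 ± 0.12 and T24H7.2 at 0.084 ± 0.086 (SE, n = 6). This last list was drawn up after the values of the chaperone genes had been seen.

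The 1 call was among the 9 small heat shock proteins. The gene hsp-12.3 (F38E11.1, chromosome IV) was lower in CPF worms, at -0.58 ± 0.094 (SE, n = 6, adjusted p 0.0376 by limma). Its log2 ratios were -0.44, -0.21 and 0.015 with CPF in Cy5 and -0.71, -0.97 and -1.16 with CPF in Cy3. It was near 0 on CPF Cy5 replicate 3 alone. Every ratio with CPF in Cy3 lay below every ratio with CPF in Cy5. The dye term of the fit takes up this difference, and the SE is what remains after it. The call was lost when any array but CPF Cy3 replicate 1 was left out (adjusted p between 0.0712 and 0.173) and within either scan day (0.0577 and 0.273). Also named after their values were seen, the heat-inducible hsp-16.2 (Y46H3A.3) and hsp-16.41 (Y46H3A.2) were at 0.22 ± 0.14 and 0.30 ± 0.17 and not called (SE, n = 6), both with their highest ratio on CPF Cy3 replicate 1 (0.89 and 1.34). Within the first scan day hsp-16.2 was fitted at 0.59 and hsp-16.41 at 0.74. Without both CPF Cy3 arrays of the second day, hsp-16.2 was at 0.57 and hsp-16.41 at 0.74. In each of these fits CPF Cy3 replicate 1 was the only array with CPF in Cy3. The fits share the arrays of the first day, so they do not repeat each other.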

How the data were processed

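RNA of CPF and control worms was hybridised on 6 two-colour arrays. Per the file headers, the authors scanned and quantified spots with ScanArray Express, and the deposited values are spot and local background intensity, the percent of saturated pixels and a spot code (1 to 4) of unstated meaning. The deposited series table holds log2 ratios, which the authors normalized with limma (loess and Aquantile). Each column matched the loess ratio of CPF over control without background correction to within 0.0148, so scale and direction are known, and its medians were -0.00107, -0.000791 and -0.000933 with CPF in Cy5 and -0.00213, 0.0021 and 0.00608 with CPF in Cy3. No deposited sample column was left unused (0).

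Scanner intensities were processed with limma 3.58.1 in R 4.3.3: normexp background correction (offset 50), loess with 742 control or empty spots at weight 0, and Aquantile between arrays. A linear model with the treatment as +1 or -1 and a dye intercept was fitted to 22490 probes with empirical Bayes moderation. P-values are two-sided and were adjusted by Benjamini-Hochberg over 18865 genes, each given by its brightest probe, and intervals are 95% intervals of the fit. Spots with at least 25% saturated pixels were called saturated. The number of arrays limits the precision. The rank product, the methods' test, used 100 permutations. Code was tested on simulated data, and figures were drawn with matplotlib 3.10.9 and pandas 2.3.3.

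Of the spot names, 21382 were matched to a RefSeq gene (WBcel235) by sequence name and 31 by gene number, and 1077 kept the name in the file. Genes named with values are those with 1 sign on all arrays and an unadjusted p below 0.05, the 3 highest and 3 lowest above background, the main chaperones of each compartment, all genes with several probes, and per list the called or the extreme genes. Others (hsp-25, dnj-9, dnj-14, dnj-23, dnj-25, dnj-26, dnj-30, hsp-2) were named after their values were seen. The members and lists were chosen with earlier results of these data known. Alternatives changed background correction, normalization, dim-spot filter, probe rule, spot code, test, replicate block, scan day and the arrays used.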

Additional observations from a re-analysis of the deposited data

Results flagged for a closer look

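Of the 36 chaperone genes above background, 3 (8.33%) had 1 array far from the other 5 by Dixon's criterion, as did 577 of 7072 genes (8.16%) on the whole array. Chance gives such an array in about 1 in 20 groups. For hsp-110, CPF Cy3 replicate 3 was at a log2 ratio of 0.83 while the other arrays lay between -0.24 and 0.11. For hsf-1, CPF Cy5 replicate 2 was at 0.59 and the others between -0.15 and 0.071. For dnj-17 (T03F6.2), a DnaJ gene fitted at -0.00013 ± 0.10 (SE, n = 6), CPF Cy3 replicate 1 was at 0.53 and the others between -0.28 and 0.00087. The array differed each time.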

How the results depend on the processing

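The count of chaperone genes called was 0 under every setting tried, rank product and each array left out in turn included, except 1 within scan day 1 and 1 without both CPF Cy3 arrays of scan day 2, a setting chosen after seeing the data. Both times the gene was cct-5, and both times CPF Cy3 replicate 1 was the only array with CPF in Cy3. Over its alternatives hsp-43 stayed above 0, with an adjusted p between 0.0502 (only probes above background) and 0.505 (within scan day 2). The other DnaJ genes had a median log2 ratio of -0.029, against 0.073 within scan day 1 and 0.11 without both CPF Cy3 arrays. Of 905 values of single chaperone genes, 133 lay on the other side of 0 from the value reported and 2 had an adjusted p below 0.05.

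The partner genes called numbered 1 as reported. They numbered 0 without background correction, with plain subtraction, in the series table, within scan day 2 and with either block (the replicate block or scan day), and 4 within scan day 1 and without both CPF Cy3 arrays (hsp-16.2 and hsp-16.41 higher, hsp-12.2 and cdc-37 lower, each time). Within scan day 1 and without both CPF Cy3 arrays, CPF Cy3 replicate 1 was the only array with CPF in Cy3. The partner genes called numbered 0 to 1 with 1 array left out. Of all genes 225 were called as reported, 19 without background correction, 3 with plain subtraction, 19 in the series table, 60 with the replicate block, 130 with scan day as a block, 861 within scan day 1, 139 within scan day 2, 619 without both CPF Cy3 arrays, 145 with spots of code 3 only, 595 probes by the rank product, and 7 to 313 with 1 array left out (7 when CPF Cy5 replicate 2 was left out, 24 for CPF Cy3 replicate 3, 37 for CPF Cy5 replicate 1 and 84 for CPF Cy5 replicate 3). Lower genes made up 164 of the 225 as reported, 6 of 19 without background correction and 0 of 3 with plain subtraction. The cause was not tested. Deviations from the fitted value had r = 0.19, -0.44 and -0.27 between same-numbered arrays, and r between -0.58 and 0.086 between differently numbered ones. They still hold the dye effect of each probe, so these r cannot decide whether replicate numbers are pairs. Replicate numbers were not taken as pairs, and the replicate block called 0 chaperone genes. Dim spots and 6 arrays limit the set: 13 of 49 genes were not above background on all arrays of either condition.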
